A study of Mus musculus with 8 samples.

Results

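The 10 genes described here encode enzymes and partners of the Polycomb and DNA methylation systems: Ezh1, Ezh2, Eed, Suz12, Jarid2, Dnmt1, Dnmt3a, Dnmt3b, Uhrf1 and Tet1. They were chosen by name, not by their values, as the rows of the count table whose Ensembl identifiers carry these symbols in the mouse GRCm38 annotation. They make up 10 of 51826 genes in the table, and all 10 were among the 16623 genes with enough counts to be tested. RNA of heart cells labelled as cardiomyocytes was sequenced in 8 libraries, 2 in each of 4 groups. Where hearts are named below, these samples labelled as cardiomyocytes are meant. The groups were adult KO mice, adult WT mice, KO embryos and WT embryos, both at embryonic day e13.5. KO mice were homozygous null for the long noncoding RNA LncSync (LncSync-/-), WT mice were wild type, and all were C57BL/6. Total RNA from TRIZOL extraction, 200 ng per library, was reverse transcribed and amplified by Smart-seq2. The labels give neither the age of the adults, nor how the cardiomyocytes were isolated, nor whether each group's libraries stem from different animals. The p-values therefore reflect only how far libraries differ, which may be technical variation.

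Polycomb repressive complex 2 (PRC2) places methyl groups on a lysine of histone H3 at genes that are kept silent. Its catalytic subunit is either Ezh2 or the related Ezh1, and it needs the subunits Eed and Suz12. Jarid2 joins a variant of the complex and helps to bring it to chromatin. DNA methylation is set at new sites by Dnmt3a and Dnmt3b and is copied after DNA replication by Dnmt1, which Uhrf1 guides to the newly made strand. Tet1 oxidises methylated cytosine, the first step of active removal. In many tissues Ezh2 and Uhrf1 are known to be abundant in dividing cells, and Ezh1 is known to remain in cells that have left the cell cycle. Cardiomyocytes divide in the embryo and rarely in the adult.

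Each library held 16495084 to 20395600 counts. The annotation has 0 genes named LncSync, so the loss of the targeted RNA was not checked. Cardiomyocyte markers, summed over 10 genes, stood at 62698 to 82245 CPM (counts scaled by library size) in adults and 14173 to 36777 CPM at e13.5. Much of the adult sum was Myh6, with 25158 to 42758 CPM in adults and 778 to 2870 CPM at e13.5. The 10 markers did not all move alike. Myh7 was lower in adults (26.7 to 76.0 CPM, against 602 to 5482 CPM at e13.5). Actc1 overlapped between the ages (10373 to 12029 CPM in adults, 5869 to 18963 CPM at e13.5). Erythroid markers summed to 16.8 to 180 CPM in adults and 20166 to 160028 CPM at e13.5, with Hbb-y, Hba-x and Slc4a1 at 0 in all adult libraries. The e13.5 libraries also differed by replicate number. Fibroblast markers summed to 3646 CPM in KO replicate 2 and 3699 CPM in WT replicate 2 at e13.5, against 418 and 886 CPM in the e13.5 replicates numbered 1, and 403 to 1031 CPM in adults. Col1a1 alone had 1399 CPM in KO and 1191 CPM in WT replicate 2, against 64.8 and 188 CPM in the replicates numbered 1. In WT e13.5, Dcn (170 CPM in replicate 1, 119 CPM in replicate 2) and Tcf21 (12.4 and 11.7 CPM) did not follow the sum. When genes were ranked by exon length into 4 equal classes, the median log2 difference of e13.5 replicate 2 over replicate 1 was 0.85 in the longest class and -0.53 in the shortest. The median log2 difference of adults over embryos was 0.68 in KO and 0.36 in WT in the longest class, and -0.88 in KO and -0.98 in WT in the shortest. Of the 10 genes, 9 had more CPM in e13.5 replicate 2 than in replicate 1 in both genotypes, and 6 lie in the longest class (Eed lies in the second shortest, and Suz12, Dnmt3b and Uhrf1 in the second longest). Adult KO libraries differed as well. Endothelial markers summed to 1922 CPM in adult KO replicate 1 and 1084 CPM in replicate 2, against 1160 and 839 CPM in adult WT. Leukocyte markers summed to 393 and 241 CPM in adult KO and 252 and 150 CPM in adult WT. Cardiomyocyte markers summed to 62698 and 80162 CPM in adult KO, with Ttn at 1231 and 7470 CPM, while Actc1 was higher in replicate 1. The part of these cell types and replicate differences in the results below was not tested. In bulk RNA, fewer cells of a type cannot be told apart from less RNA per cell.

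The promoters of Ezh2, Uhrf1, Dnmt1, Suz12 and Ezh1 are shown first, because the first 3 of these genes are known targets of E2F factors, which switch on genes for DNA replication. RefSeq windows on GRCm38.p6 run from 250 bases before to 50 bases after an annotated start, and all 10 genes matched, with 16 windows. Both strands were searched for the 4 spellings of the E2F consensus, TTTCCCGC, TTTGGCGC, TTTCGCGC and TTTGCCGC, which capitals mark. The window of Ezh2 is chr6:47594981-47595280 on the minus strand, that of Uhrf1 (the second of 2 listed starts) is chr17:56304063-56304362 on the plus strand, that of Dnmt1 (the third of 3) is chr9:20952574-20952873 on the minus strand, that of Suz12 is chr11:79992856-79993155 on the plus strand, and that of Ezh1 is chr11:101226414-101226713 on the minus strand.
Ezh2: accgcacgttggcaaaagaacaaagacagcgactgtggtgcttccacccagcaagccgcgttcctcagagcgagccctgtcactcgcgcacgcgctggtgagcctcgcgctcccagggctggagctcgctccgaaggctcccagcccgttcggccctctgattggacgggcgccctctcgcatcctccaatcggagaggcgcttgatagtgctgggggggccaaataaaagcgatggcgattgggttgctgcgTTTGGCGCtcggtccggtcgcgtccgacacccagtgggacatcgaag
Uhrf1: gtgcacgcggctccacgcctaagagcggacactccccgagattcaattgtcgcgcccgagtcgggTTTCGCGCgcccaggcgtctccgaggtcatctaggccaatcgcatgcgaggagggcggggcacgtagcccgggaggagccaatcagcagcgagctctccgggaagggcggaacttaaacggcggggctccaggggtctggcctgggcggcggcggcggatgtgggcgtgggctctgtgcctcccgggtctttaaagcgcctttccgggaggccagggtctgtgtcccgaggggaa
Dnmt1: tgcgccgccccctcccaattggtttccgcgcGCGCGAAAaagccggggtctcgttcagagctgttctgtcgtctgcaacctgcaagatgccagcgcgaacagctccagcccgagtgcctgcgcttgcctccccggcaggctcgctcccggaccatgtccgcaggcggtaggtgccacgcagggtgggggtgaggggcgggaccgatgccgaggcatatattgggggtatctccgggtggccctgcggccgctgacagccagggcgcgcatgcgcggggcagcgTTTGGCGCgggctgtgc
Suz12: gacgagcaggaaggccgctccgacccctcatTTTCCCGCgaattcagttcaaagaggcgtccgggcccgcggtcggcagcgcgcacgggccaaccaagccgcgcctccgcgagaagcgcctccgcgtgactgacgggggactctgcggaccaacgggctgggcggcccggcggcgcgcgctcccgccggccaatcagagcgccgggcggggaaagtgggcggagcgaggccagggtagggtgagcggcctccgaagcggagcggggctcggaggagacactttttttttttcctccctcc
Ezh1: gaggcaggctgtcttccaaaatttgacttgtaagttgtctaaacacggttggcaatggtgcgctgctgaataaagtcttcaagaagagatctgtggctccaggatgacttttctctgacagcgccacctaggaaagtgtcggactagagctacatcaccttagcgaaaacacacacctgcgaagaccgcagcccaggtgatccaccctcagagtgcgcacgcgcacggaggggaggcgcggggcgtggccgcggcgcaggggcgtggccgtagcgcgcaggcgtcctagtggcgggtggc

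Windows of 4 of the 10 genes held a match. In Ezh2, TTTGGCGC began 4 bases downstream, counting the start as base 1. In Uhrf1, TTTCGCGC began 185 bases upstream, and in Suz12, TTTCCCGC began 219 bases upstream. The Dnmt1 window held TTTCGCGC on the reverse strand from 219 bases upstream and TTTGGCGC from 34 bases downstream, and no matches overlapped. Of all 27025 genes with a window, 2.61% held a match, as did 2.26% of the 32851 windows. The windows of the 10 genes had a median of 23.5 CpG dinucleotides, against 7 over all windows, and the 4 spellings contain CpG. A match shows only that these letters are present, and the absence of a match in the other 6 genes, Ezh1 among them, only that they are not in these windows. Of the 4 genes with a match, Ezh2 and Uhrf1 were lower in adults, Suz12 was higher and Dnmt1 was not called, as described next. Dnmt3b and Tet1, which were called lower in WT, had no match. The part of the matches in these levels was not tested.

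The comparison of adults with embryos showed the largest changes in these genes. Uhrf1 and Ezh2 fell and Ezh1 and Suz12 rose in both genotypes, and Dnmt3b and Tet1 fell in WT. A gene was called at an adjusted p below 0.05 by edgeR's quasi-likelihood test, with Benjamini-Hochberg adjustment over all 16623 genes tested. In KO hearts, 4 of the 10 genes were called, 2 higher and 2 lower in adults, where 41.4% of all genes were called (20.5% higher, 20.9% lower). In WT hearts, 6 of 10 were called, 2 higher and 4 lower, where 38.9% of all genes were called (17.8% higher, 21.1% lower). The share in KO was thus close to that of all genes, and the share in WT rests on 10 genes. The median log2 change was -0.93 in KO and -1.14 in WT, against -0.15 and -0.26 over all genes tested. Levels of adults and embryos did not overlap for 9 genes in KO and 8 in WT, where this held for 72.7% and 75.9% of all genes. Because the e13.5 replicates differed, the counts were also taken without them, a choice made after seeing the data. Without both e13.5 libraries numbered 2, 6 genes were called in KO and 7 in WT, where 54.8% of all genes were called in each genotype, with Eed lower (log2 -1.503 in KO, -1.20 in WT) and Jarid2 higher (1.39 in KO, 1.81 in WT) in adults, and Tet1 no longer called in WT. Without both numbered 1, 4 genes were called in KO and 6 in WT, where 42.3% and 37.6% of all genes were called, with Dnmt1 lower in adults (log2 -1.18 in KO, -2.14 in WT) and Suz12 no longer called.

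**Figure D1:**
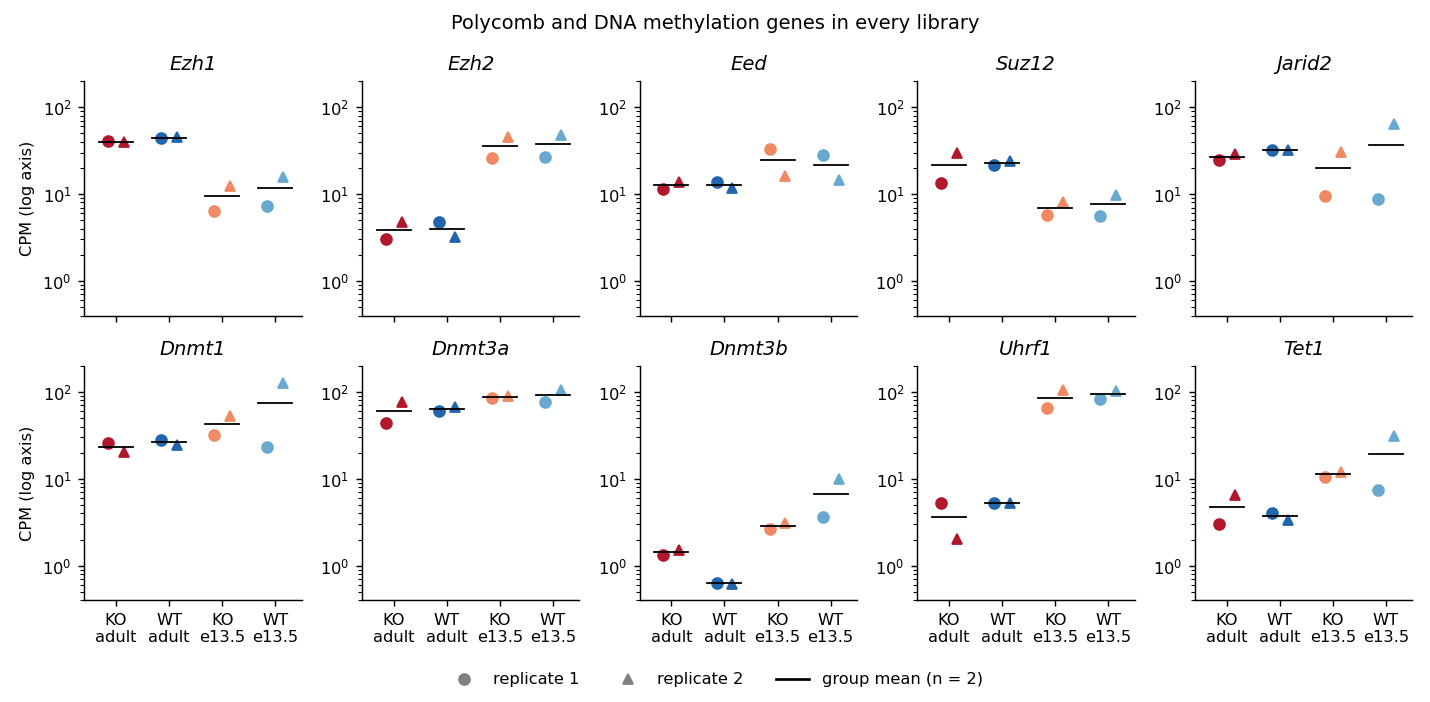
Level of each of the 10 genes in every library, in CPM with TMM-scaled library sizes on a log axis. Circles are replicate 1, triangles replicate 2 and bars the mean of 2 libraries. Uhrf1 and Ezh2 sit lower in adults and Ezh1 and Suz12 higher, and the WT e13.5 replicates lie far apart for Jarid2, Dnmt1 and Tet1.

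The catalytic subunits moved in opposite directions. Ezh2 (chr6:47530139-47595341, minus strand, GRCm38) had 3.03 and 4.77 CPM in adult KO hearts and 4.72 and 3.17 CPM in adult WT hearts. At e13.5 it had 26.3 and 45.7 CPM in KO and 26.5 and 48.1 CPM in WT. All 4 adult libraries thus lay far below all 4 embryonic ones, with no overlap. Ezh2 was lower in adults by 9.22-fold in KO (log2 -3.20 ± 0.56 SE, adjusted p = 0.00204) and by 9.44-fold in WT (log2 -3.24 ± 0.56, adjusted p = 0.00213), by edgeR. Ezh1 (chr11:101191115-101226463, minus strand) had 40.8 and 39.7 CPM in adult KO hearts and 44.2 and 45.2 CPM in adult WT hearts. In embryos it had 6.38 and 12.5 CPM in KO and 7.33 and 15.9 CPM in WT. The adult libraries were all high and close together, and the embryonic ones all low, with replicate 2 above replicate 1 in both genotypes. Ezh1 rose 4.25-fold in KO (log2 2.09 ± 0.52, adjusted p = 0.0116) and 3.85-fold in WT (log2 1.94 ± 0.52, adjusted p = 0.0163), by edgeR. The Ezh1 call in WT was lost without WT e13.5 replicate 1, WT adult replicate 1 or WT adult replicate 2 (adjusted p 0.05004 to 0.0798), and in KO without KO e13.5 replicate 1 (adjusted p = 0.0648). Without WT e13.5 replicate 2 its log2 change in WT was 2.63. The Ezh2 call held in both genotypes whichever library was left out.

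The ratio of Ezh1 to Ezh2 counts within a library does not depend on how libraries are scaled. It was 13.48 and 8.32 in adult KO hearts and 9.37 and 14.3 in adult WT hearts. At e13.5 it was 0.242 and 0.275 in KO and 0.276 and 0.330 in WT. Ezh1 was thus the more abundant of the pair in every adult library and the less abundant in every embryonic one. As a share of the sum of both genes, Ezh1 took 89.3% to 93.4% of counts in adults and 19.5% to 24.8% at e13.5. The widest 95% Wilson interval of a library, which covers counting error only, ran from 16.3% to 23.1%, in KO e13.5 replicate 1 with 102 Ezh1 counts of 523. The mean log2 ratio was 3.40 ± 0.49 in adult KO, 3.53 ± 0.43 in adult WT, -1.95 ± 0.13 in KO e13.5 and -1.73 ± 0.18 in WT e13.5 (SD, n = 2 each). Adults exceeded embryos by 5.31 on the log2 scale, or 39.6-fold (two-sided exact permutation test of 4 against 4 libraries, p = 0.0286, the smallest this design allows). Leaving out each library in turn gave differences of 5.19 to 5.45. The exact permutation within genotype gave p = 0.0556, the smallest that test allows. Between genotypes the log2 ratio differed by -0.13 in adults (exact permutation p = 0.667) and by -0.23 at e13.5 (exact permutation p = 0.333), where 2 against 2 libraries cannot go below 0.333.

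**Figure D2:**
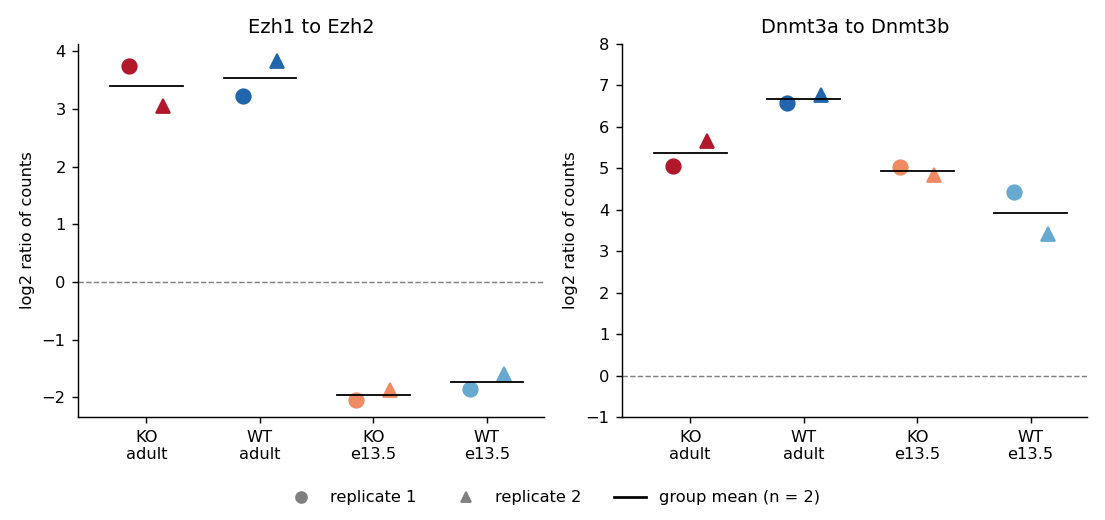
Log2 ratio of counts of Ezh1 to Ezh2 (left) and of Dnmt3a to Dnmt3b (right) in every library. Circles are replicate 1, triangles replicate 2, bars the mean of 2 libraries, and the dashed line marks equal counts. The Ezh1 to Ezh2 ratio is above the line in all 4 adult libraries and below it in all 4 embryonic ones. The Dnmt3a to Dnmt3b ratio is above it in all 8.

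Of the other PRC2 subunits, Suz12 rose, and Eed and Jarid2 did not pass the test. Suz12 (chr11:79993106-80034123, plus strand), which anchors the complex, had 13.4 and 29.4 CPM in adult KO and 21.8 and 24.3 CPM in adult WT. The embryonic libraries held 5.69 and 8.03 CPM in KO and 5.62 and 9.64 CPM in WT. Suz12 rose 3.11-fold in KO (log2 1.64 ± 0.53, adjusted p = 0.0336) and 3.01-fold in WT (log2 1.59 ± 0.53, adjusted p = 0.0389), by edgeR. Adult and embryonic libraries did not overlap, and the 2 adult KO libraries differed most. The Suz12 call was close to the threshold. In WT it was lost without WT e13.5 replicate 1, WT adult replicate 1 or WT adult replicate 2 (adjusted p 0.120 to 0.169). In KO it was lost without KO e13.5 replicate 1 or 2, KO adult replicate 2 or WT adult replicate 1 or 2 (adjusted p 0.0523 to 0.248), and its log2 change was 0.98 without KO adult replicate 2.

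Eed (chr7:89954654-89980983, minus strand), which reads the mark and stimulates the enzyme, had 11.5 and 13.6 CPM in adult KO and 13.6 and 11.8 CPM in adult WT. In the e13.5 hearts it stood at 33.1 and 16.3 CPM in KO and 28.5 and 14.4 CPM in WT. The adult libraries were close together, and among embryos replicate 2 had 0.491 of the level of replicate 1 in KO and 0.505 in WT. The log2 difference of adults from embryos was -0.97 ± 0.52 in KO (adjusted p = 0.152) and -0.76 ± 0.52 in WT (adjusted p = 0.266), which edgeR did not call. Adults lay below embryos without overlap in both genotypes, and without both e13.5 libraries numbered 2 Eed was called lower in both. Jarid2 (chr13:44729474-44921643, plus strand) had 24.5 and 28.6 CPM in adult KO and 31.8 CPM in both adult WT libraries. At e13.5 it had 9.44 and 30.4 CPM in KO and 8.85 and 64.4 CPM in WT. The embryonic libraries numbered 1 lay below all adult ones, and WT e13.5 replicate 2 lay above all adult ones. No difference was called for Jarid2 (log2 0.41 ± 0.81 in KO, 95% interval -1.39 to 2.22, and -0.20 ± 0.80 in WT, 95% interval -2.00 to 1.59). Without WT e13.5 replicate 2 the WT value of Jarid2 was 1.87 and called by edgeR (adjusted p = 0.0475). Without both e13.5 libraries numbered 2 it was called higher in both genotypes, so its direction depends on the e13.5 replicates.

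Of the DNA methylation genes, Uhrf1 showed the largest fall. Uhrf1 (chr17:56303321-56323486, plus strand) had 5.20 and 2.05 CPM in adult KO hearts and 5.24 and 5.30 CPM in adult WT hearts. In embryos it had 64.6 and 105.6 CPM in KO and 83.6 and 103.5 CPM in WT. No adult library came near the lowest embryonic one. Uhrf1 was lower in adults by 23.4-fold in KO (log2 -4.55 ± 0.58, adjusted p = 0.000498) and by 17.7-fold in WT (log2 -4.15 ± 0.57, adjusted p = 0.000723), by edgeR. Its call held whichever library was left out, with a log2 change of -5.36 in KO without KO adult replicate 1. Uhrf1 shares 1590 bases at 98.3% identity with the pseudogene Gm5648, which took 1 count over all 8 libraries.

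Dnmt1 (chr9:20907209-20959888, minus strand), the maintenance enzyme that Uhrf1 guides, did not pass the test. It had 25.9 and 20.3 CPM in adult KO and 27.9 and 24.7 CPM in adult WT. The embryonic libraries held 32.003 and 53.3 CPM in KO and 23.0 and 128 CPM in WT. The WT embryos differed 5.58-fold from each other, and the lower of them lay below both adult WT libraries. The log2 difference of adults from embryos was -0.88 ± 0.68 in KO (adjusted p = 0.312) and -1.52 ± 0.69 in WT (adjusted p = 0.105) by edgeR. In WT, Dnmt1 was called lower in adults without WT e13.5 replicate 1 (log2 -2.15, adjusted p = 0.00717) and was at 0.22 without WT e13.5 replicate 2 (adjusted p = 0.744). With no filter on low counts Dnmt1 was just called in WT (log2 -1.41, adjusted p = 0.0477).

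The de novo enzymes differed in level and in change. Dnmt3a (chr12:3806007-3914443, plus strand) had 44.0 and 77.2 CPM in adult KO and 61.1 and 67.1 CPM in adult WT. In the e13.5 hearts it stood at 85.6 and 89.5 CPM in KO and 76.9 and 107 CPM in WT. Adults lay below embryos without overlap in both genotypes, by log2 -0.53 ± 0.43 in KO (95% interval -1.49 to 0.43) and -0.52 ± 0.43 in WT (95% interval -1.47 to 0.44), which edgeR did not call. Dnmt3b (chr2:153649450-153687730, plus strand) had 1.32 and 1.52 CPM in adult KO and 0.640 and 0.620 CPM in adult WT, from 20, 23, 11 and 9 counts. At e13.5 it had 2.63 and 3.13 CPM in KO and 3.59 and 9.92 CPM in WT. In each genotype both adult libraries were below both embryonic ones. Dnmt3b fell in WT (log2 -3.41 ± 0.69, adjusted p = 0.00479, edgeR), and was at -2.48 without WT e13.5 replicate 2 (adjusted p = 0.0245). In KO its log2 difference was -1.02 ± 0.64 (95% interval -2.44 to 0.41, adjusted p = 0.218). The interaction of genotype and age for Dnmt3b was 2.40 ± 0.92 (unadjusted p = 0.0267, adjusted p = 0.99998 over all genes, edgeR), so the age effects of KO and WT were not shown to differ. The log2 ratio of Dnmt3a to Dnmt3b counts was 5.36 ± 0.42 in adult KO, 6.67 ± 0.13 in adult WT, 4.93 ± 0.13 in KO e13.5 and 3.92 ± 0.70 in WT e13.5 (SD, n = 2 each). Adults exceeded embryos by 1.59 on the log2 scale (exact permutation test, p = 0.0286). This did not hold when 1 was added to both counts (1.504, exact permutation p = 0.0571) or without any of the 4 e13.5 libraries or WT adult replicate 2 (1.25 to 1.79, exact permutation p = 0.0571).

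Tet1 (chr10:62804570-62908996, minus strand) had 3.03 and 6.50 CPM in adult KO and 4.02 and 3.37 CPM in adult WT. In embryos it had 10.5 and 12.1 CPM in KO and 7.42 and 31.4 CPM in WT. All adult libraries lay below all embryonic ones, and the WT embryos differed 4.23-fold from each other. Tet1 fell in WT (log2 -2.39 ± 0.71, adjusted p = 0.0244, edgeR), and in KO the log2 difference was -1.25 ± 0.68 (adjusted p = 0.162). The WT call was lost without WT e13.5 replicate 2 (log2 -0.98, adjusted p = 0.217), without both e13.5 libraries numbered 2 (log2 -1.04, adjusted p = 0.138), and without WT adult replicate 1 or 2 (adjusted p = 0.114 and 0.147). The interaction for Tet1 was 1.14 ± 0.96 (95% interval -0.996 to 3.28), which was not called.

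**Figure D3:**
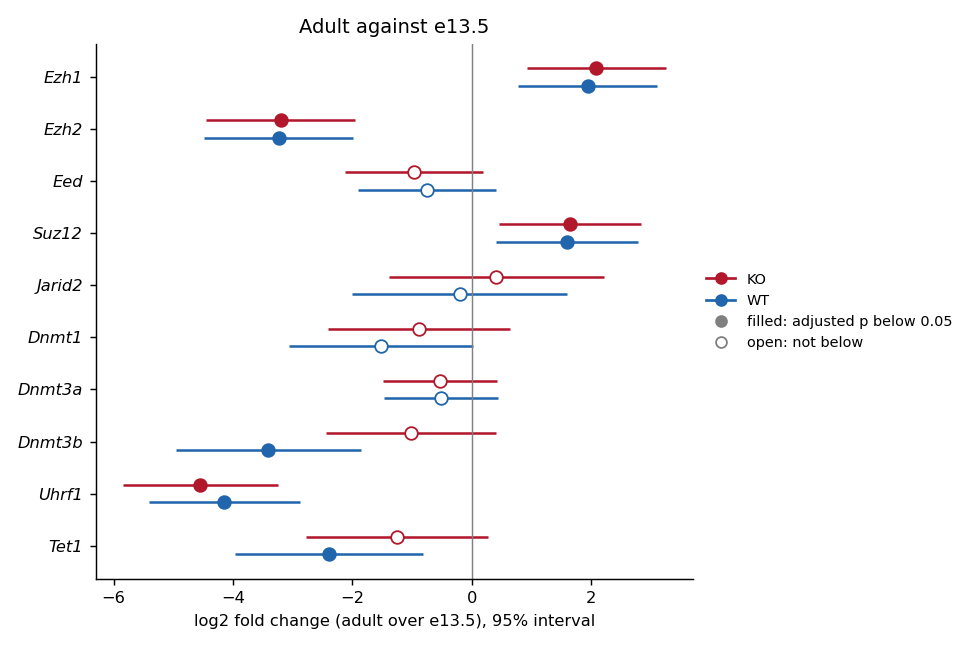
Log2 fold change of adult over e13.5 for the 10 genes in KO and WT, with 95% intervals from the edgeR fit (points filled where the adjusted p was below 0.05). Ezh1 and Suz12 lie above 0 and Ezh2 and Uhrf1 below 0 in both genotypes, and Dnmt3b and Tet1 are filled in WT alone.

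Per kilobase of exon, the order of the 10 genes differed between ages. In adults Ezh1 stood first, at 5.41 ± 0.11 CPM per kb in KO and 6.01 ± 0.09 in WT, followed by Suz12 at 4.33 ± 2.28 in KO and 4.66 ± 0.36 in WT (SD, n = 2 each), which in KO is within the spread of Suz12. Dnmt3a, Eed, Dnmt1 and Jarid2 followed at 2.73 to 3.85 CPM per kb, and when ordered by level within each genotype, neighbours in this run differed by less than the larger of their SDs. Uhrf1 stood at 0.852 ± 0.523 in KO and 1.24 ± 0.01 in WT, Ezh2 at 0.584 and 0.590, Tet1 at 0.308 and 0.239, and Dnmt3b lowest at 0.278 and 0.123. At e13.5 Uhrf1 stood first, at 19.99 ± 6.81 CPM per kb in KO and 22.0 ± 3.31 in WT. Eed, Dnmt1, Ezh2 and Dnmt3a followed at 5.26 to 10.3 CPM per kb, and when ordered by level within each genotype, neighbours differed by less than the larger of their SDs. Jarid2, Suz12 and Ezh1 were at 1.27 to 3.77, and Tet1 and Dnmt3b at 0.563 to 1.32 CPM per kb. Ezh1 was thus first of 10 in adults and seventh or eighth in embryos.

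The partners of these enzymes were followed in 10 further lists. Among 8 accessory subunits of PRC2, 2 rose and 3 fell in KO (62.5% called, against 41.4% of all genes), and 1 rose and 2 fell in WT (37.5%, against 38.9%). Aebp2, a DNA-binding accessory subunit, rose by 3.25 ± 0.61 in KO and 2.80 ± 0.60 in WT on the log2 scale (adjusted p = 0.00307 and 0.00596, edgeR). Mtf2, a Polycomb-like protein that helps PRC2 to bind CpG islands, fell (log2 -2.96 ± 0.51 in KO and -2.29 ± 0.49 in WT). Rbbp4, a histone chaperone shared with other complexes, also fell (log2 -1.82 ± 0.43 in KO and -1.70 ± 0.43 in WT). In KO, Rbbp7 also fell (log2 -1.87 ± 0.54) and Phf1, another Polycomb-like protein named after its value was seen, rose (1.57 ± 0.47).

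PRC1, which reads the PRC2 mark and attaches ubiquitin to histone H2A, had 21 listed genes. In KO, 4 of them rose and 3 fell (33.3% called, below the 41.4% of all genes), and in WT 4 rose and 2 fell (28.6%, below the 38.9% of all genes). Cbx7, which binds the mark, had 13.4 and 12.1 CPM in adult KO and 21.0 and 16.7 CPM in adult WT. In embryos Cbx7 had 0.125 and 0.356 CPM in KO and 0.369 and 0.654 CPM in WT. It rose by 5.61 ± 0.67 in KO and 5.17 ± 0.63 in WT on the log2 scale (adjusted p = 0.000373 and 0.000452, edgeR). Bmi1, a core ring-finger subunit, rose by 3.68 ± 0.48 in KO and 3.88 ± 0.49 in WT, while its relative Pcgf2, named after its value was seen, fell (log2 -2.19 ± 0.51 in KO and -2.21 ± 0.51 in WT). Per kilobase, Bmi1 stood at 11.3 ± 1.34 in adult KO, 13.3 ± 0.20 in adult WT, 0.878 ± 0.307 in KO e13.5 and 0.897 ± 0.251 in WT e13.5. Pcgf2 stood at 0.778 ± 0.116 in adult KO, 0.867 ± 0.128 in adult WT, 3.55 ± 0.81 in KO e13.5 and 4.01 ± 1.42 in WT e13.5 (SD, n = 2 each). Bmi1 thus exceeded Pcgf2 in adults, and Pcgf2 exceeded Bmi1 at e13.5. Rnf2, an E3 ubiquitin ligase of PRC1, fell (log2 -2.74 ± 0.47 in KO and -2.38 ± 0.47 in WT), and Phc2 rose by 2.61 ± 0.47 in KO and 2.18 ± 0.47 in WT. Ring1 of the same list, named after its value was seen, lay higher in adults. It had 20.2 and 18.8 CPM in adult KO and 18.4 and 18.2 CPM in adult WT. At e13.5 Ring1 had 0.438 and 9.73 CPM in KO and 0.691 and 11.3 CPM in WT.

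Of 6 genes whose products remove Polycomb marks, only Asxl1, the partner of the H2A deubiquitinase Bap1, was called, higher in adults by 2.15 ± 0.52 in KO and 1.58 ± 0.51 in WT. This was 16.7% of the list, below the 41.4% of all genes called in KO and 38.9% in WT. Of 5 tested partners of DNA methyltransferases (7 listed), Hells fell (log2 -4.73 ± 0.60 in KO and -3.93 ± 0.58 in WT), as did Zfp57 (-3.70 ± 0.57 in KO and -3.42 ± 0.56 in WT). Hells is a chromatin remodeller needed for DNA methylation, and Zfp57 protects methylation at imprinted genes. Usp7, a deubiquitinase that binds Dnmt1 and Uhrf1, rose by 2.40 ± 0.51 in KO and 2.60 ± 0.51 in WT. Calls thus covered 60% of the 5 tested partners in each genotype, against 41.4% of all genes in KO and 38.9% in WT. Of 6 genes of TET oxidation and base excision other than Tet1, 3 fell in both genotypes (50% called, near the 41.4% of all genes in KO and 38.9% in WT). These were Tdg (-2.34 ± 0.42 in KO, -2.47 ± 0.42 in WT), Apex1 (-3.05 ± 0.58 in KO, -2.81 ± 0.58 in WT) and Mbd4 (-2.76 ± 0.54 in KO, -2.02 ± 0.52 in WT), which excise altered bases or cut the DNA backbone beside them. Tet2 and Tet3, named after their values were seen, were not called, and Tet3 stood at 2.03 ± 0.17 CPM per kb in adult KO and 1.74 ± 0.02 in adult WT, against 0.308 ± 0.159 and 0.239 ± 0.029 for Tet1.

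In a list of 7 readers of methylated CpG and relatives (Mbd3 is listed as a relative), 6 genes rose in KO and 5 in WT, and none fell (85.7% of the list called in KO and 71.4% in WT, against 41.4% and 38.9% of all genes). Mbd2 rose by 3.73 ± 0.48 in KO and 4.36 ± 0.50 in WT, Zbtb4 by 4.06 ± 0.66 in KO and 3.39 ± 0.64 in WT, and Zbtb33 (Kaiso) by 2.51 ± 0.54 in KO and 2.46 ± 0.53 in WT. The list's median log2 change was 1.92 in KO and 1.49 in WT, beside -0.15 and -0.26 over all genes. Of 19 other histone lysine methyltransferases, 7 rose and 2 fell in both genotypes, or 47.4% called, near the 41.4% of all genes in KO and 38.9% in WT. Kmt5a rose by 3.75 ± 0.45 in KO and 3.60 ± 0.45 in WT, and Kmt2b by 3.37 ± 0.48 in KO and 2.49 ± 0.46 in WT. Suv39h1 and Kmt5c, which act on heterochromatin, fell. Suv39h1 was at -2.98 ± 0.48 in KO and -2.77 ± 0.47 in WT, and Kmt5c at -1.96 ± 0.41 in KO and -1.86 ± 0.41 in WT.

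Of 20 genes of DNA replication and mitosis, 18 fell in each genotype, with a median log2 change of -4.54 in KO and -4.38 in WT. This was 90% of the list, against 41.4% of all genes called in KO and 38.9% in WT. Aurkb, a mitotic kinase, was at -6.22 ± 0.55 in KO and -5.54 ± 0.54 in WT, and Tyms, which makes thymidylate, at -4.79 ± 0.48 in KO and -4.38 ± 0.47 in WT. The changes of Ezh2 and Uhrf1 lay in the same direction as those of this list, and its part in them was not tested. Of 5 tested genes known as PRC2 targets (7 listed), Isl1 and Bmp10 fell in both genotypes and had 0 counts in all 4 adult libraries. They made up 40% of those tested, near the 41.4% of all genes called in KO and 38.9% in WT. Hcn4 of the same list went the other way without a call. Its mean was 11.8 CPM in adult KO and 15.8 CPM in adult WT, against 5.19 and 10.5 CPM at e13.5. Isl1 was at least 104-fold lower in adult KO and at least 66.9-fold lower in adult WT, and Bmp10 at least 73.8-fold and 168-fold lower, taking 3 counts summed over the adult group as the floor. The KO embryos differed from each other, with 5.25 and 15.4 CPM of Isl1 and 13.4 and 1.19 CPM of Bmp10, and from the lower library alone they were at least 53.0-fold (Isl1) and at least 12.0-fold (Bmp10) lower in adult KO. Of 9 germline genes known to be silenced by DNA methylation, 2 were tested and none was called, and their sum was 0.857 to 1.38 CPM in adults and 1.19 to 2.44 CPM at e13.5. Adult values of Isl1, Bmp10 and the germline genes come from few or no counts, where 3 counts correspond to 0.175 to 0.207 CPM.

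**Figure D4:**
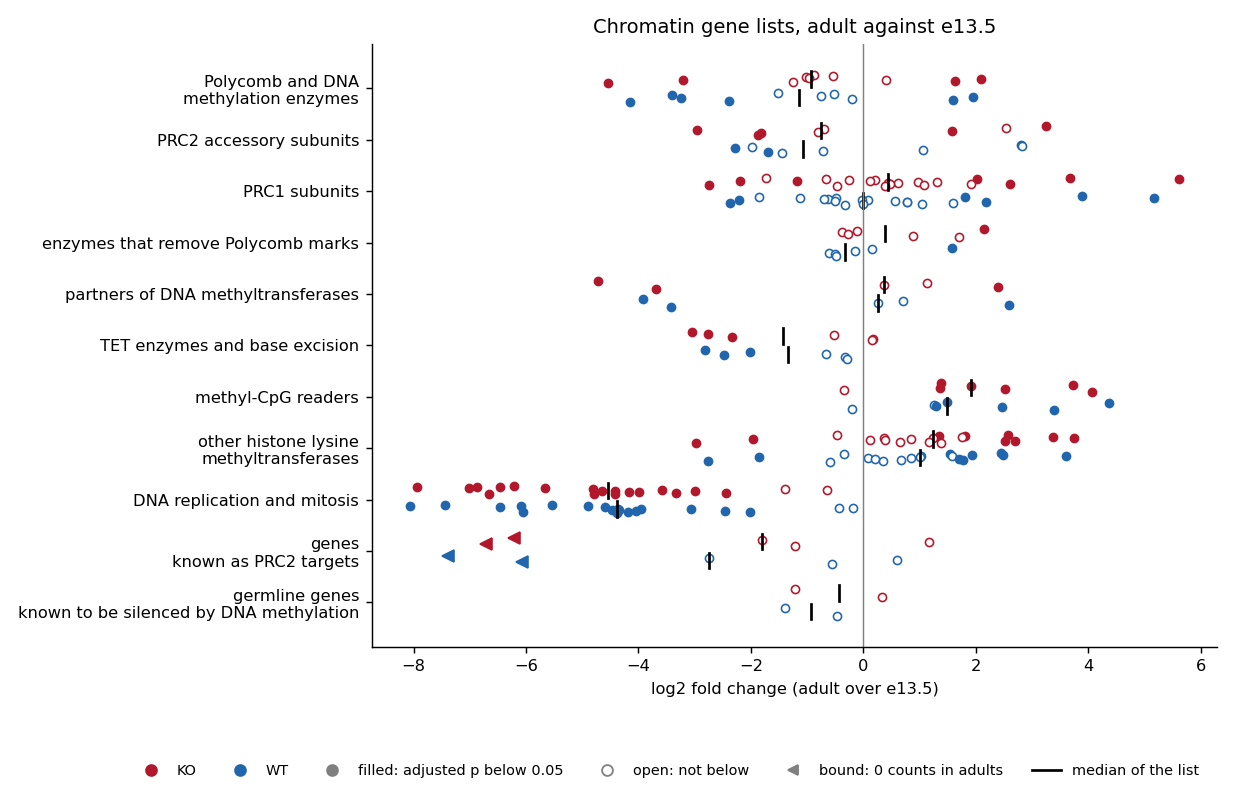
Log2 fold change of adult over e13.5 for every tested gene of the 10 enzymes and of 10 lists of related genes, KO above WT in each row. Filled points passed an adjusted p below 0.05, triangles are bounds for Isl1 and Bmp10 (0 counts in adults), and black bars are the medians of the list. DNA replication and mitosis genes lie furthest left, with medians of -4.54 in KO and -4.38 in WT. The list of methyl-CpG readers, with their relative Mbd3, lies to the right, with medians of 1.92 and 1.49.

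The comparison of KO with WT addressed whether loss of LncSync changes these genes. None of the 10 genes was called at either age (adjusted p = 1 for each, edgeR, and 0 with an unadjusted p below 0.05), where 0.0481% of all genes were called in adults and 0.0722% at e13.5. In adults, 8 of the 10 differences were below 0 and the median was -0.09, and at e13.5, 9 were below 0 and the median was -0.22, against 0.01 and -0.07 over all genes. The sign at e13.5 depends on scaling: under median-of-ratios scaling the median over all genes moved by more than 0.1, to 0.05, and Ezh2 and Dnmt3a stood at 0.08 each. For Ezh1 the interval of the log2 difference was -1.27 to 0.97 in adults and -1.42 to 0.84 at e13.5. For Ezh2 it was -1.19 to 1.16 in adults and -1.18 to 1.08 at e13.5, and for Uhrf1 -1.70 to 0.62 and -1.24 to 0.97. The narrowest intervals were those of Dnmt3a, -1.04 to 0.87 in adults and -1.02 to 0.89 at e13.5. At both ages the interval of each of the 10 genes reached past 1 on the log2 scale on at least 1 side, so a 2-fold difference lay within the error in at least 1 direction.

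Levels of KO and WT did not overlap for 4 genes in adults (Ezh1, Jarid2, Dnmt3b and Uhrf1) and for Dnmt3b alone at e13.5, where this held for 27.9% and 15.4% of all genes. Dnmt3b was the only one of the 10 with an estimate beyond 1 on the log2 scale, at 1.16 ± 0.68 in adults (95% interval -0.35 to 2.68) and -1.23 ± 0.62 at e13.5 (95% interval -2.62 to 0.16). Without WT e13.5 replicate 2 the e13.5 value was -0.30. The interaction of genotype and age was called for 0 of 16623 genes by edgeR, with 265 genes at an unadjusted p below 0.05, and for 7 genes by DESeq2, none of them among the 10. No gene of the 10 further lists was called between KO and WT at either age. At e13.5 the H3 demethylase gene Kdm6b stood at -1.94 ± 0.84 (unadjusted p = 0.0443, adjusted p = 1, edgeR), and in adults at 0.26 ± 0.81. Its e13.5 levels overlapped, with 4.19 and 24.3 CPM in KO and 19.8 and 89.4 CPM in WT.

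**Figure D5:**
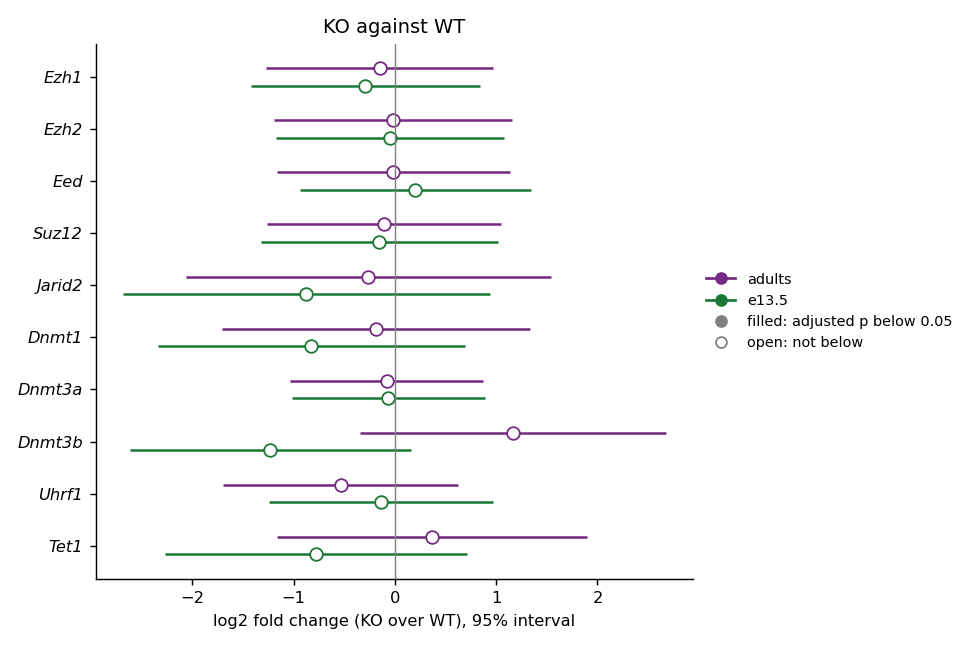
Log2 fold change of KO over WT for the 10 genes in adults and at e13.5, with 95% intervals from the edgeR fit. Every interval includes 0 and no point is filled, and Dnmt3b lies above 0 in adults (1.16) and below 0 at e13.5 (-1.23).

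Genes whose levels followed Ezh2 and Ezh1 most closely were found by Pearson correlation of log2 CPM over the 8 libraries. The search covered 10324 tested genes with a mean of at least 5 CPM and a proper name. Genes with provisional names (such as Gm with a number, or Rik), names marked as pseudogenes, or only an identifier were left out. The points share the age split and the replicate difference at e13.5, so the coefficients are descriptions. For Ezh2 the closest were Creb5 (r = 0.995), Xrn2 (0.993), Stil (0.993), Fam107b (0.993) and Plppr3 (0.993). Stil, which acts in centriole duplication, had 0.198 to 0.530 CPM in adults and 10.6 to 32.3 CPM at e13.5. For Ezh1 they were Tns2 (r = 0.999), Lgr6 (0.999), Fhod1 (0.997), Wrnip1 (0.997) and Mfn2 (0.997). Mfn2, which fuses mitochondria, had 943 to 1153 CPM in adults and 23.7 to 158 CPM at e13.5. Coefficients above 0.9 were reached by 1267 genes for Ezh2 and 2372 for Ezh1, so these genes are few of many that separate the ages. Among the 10 genes themselves, Ezh2 went most closely with Uhrf1 (r = 0.96), and Ezh1 with Suz12 (r = 0.94).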

How the data were processed

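Smart-seq2 RNA libraries of 8 samples were analysed. The authors deposited expected counts (RSEM's estimated counts) per gene, made with RSEM on mm10, per the submitters' processing notes. The aligner, software versions and gene annotation they used were not given in the sources used here. Since the values are whole and their totals differ by library, they were taken as unscaled.

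Of 51826 genes, 51633 matched an entry of GENCODE vM21. Genes were kept by filterByExpr (16623), and library sizes were scaled by TMM (factors 0.770 to 1.44) in edgeR 4.0.16 with R 4.3.3. A quasi-likelihood model with 4 group means was fitted to all 8 libraries (4 residual and 5.74 prior degrees of freedom, median biological coefficient of variation 0.428), and tested two-sided with Benjamini-Hochberg adjustment. The script was tested on simulated data for adults against e13.5 in WT. It called 2 of 83 genes changed 2-fold, 8 of 55 changed 4-fold and 42 of 62 changed 8-fold. Of 15437 unchanged genes, it called 2. Most 2-fold and 4-fold changes were thus missed there. In the simulation 15437 of 15637 genes were unchanged, whereas 38.9% of all genes were called in the WT data. The adjusted p depends on this share, so these rates do not give the sensitivity of the reported comparison. The standard error is the log2 fold change divided by the square root of F, and intervals use the t distribution of the fit. CPM use TMM-scaled library sizes, and log2 CPM a prior count of 2. Depth gives a floor of 3 counts, 0.103 to 0.207 CPM per library. Wilson intervals and floors cover counting error only, and the intervals of log2 fold changes include the spread between libraries. Ratios were tested by exact permutation in R, and Wilson intervals were computed with scipy 1.17.1. BLAST 2.17.0 (at least 95% identity over 200 bases) searched for near-identical transcripts. Genes that overlap the 10 on either strand took at most 79 counts in all. Figures used matplotlib 3.10.9 with Python 3.11.15.

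Alternatives were median-of-ratios and upper quartile scaling, leaving out mitochondrial, haemoglobin and ribosomal RNA genes, no filter, at least 5 CPM in at least 2 libraries, DESeq2 1.42.0, the 4 libraries of a comparison alone, the replicate number as a block, and each library left out. The block at e13.5 alone, and leaving out both e13.5 libraries of one number, were added after seeing the data. The members and lists were chosen with earlier results of these data known. All 10 genes are named, and from each list, per comparison, up to 4 called genes by smallest p, or the 2 of highest level where none was called. Phf1, Pcgf2, Ring1, Tet2 and Tet3 fall outside this rule. Kdm6b is one of the 2 of highest level in its list at e13.5. For KO against WT it is the only list gene named, and the other genes that this rule gives are left out. No column was left out.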

Additional observations from a re-analysis of the deposited data

Results flagged for a closer look

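Dnmt3b was picked for this section because KO and WT did not overlap at either age and differed in opposite directions. The interaction given below measures the same pattern in the same values, so its p-value is no independent support. Dnmt3b stood lower in both KO libraries than in both WT libraries at e13.5 and higher in both KO libraries than in both WT libraries in adults. The difference between the effects, tested as the interaction of genotype and age, was 2.40 on the log2 scale (SE 0.92, unadjusted p = 0.0267), and it missed the threshold after adjustment over all genes (adjusted p = 0.99998, edgeR). Without WT e13.5 replicate 2 it was 1.45. The adult values rest on 20 and 23 counts in KO and on 11 and 9 counts in WT. The fibroblast marker sum was 3646 CPM in KO e13.5 replicate 2 and 3699 CPM in WT e13.5 replicate 2, against 418 and 886 CPM in the other 2 e13.5 libraries. Dcn and Tcf21 did not follow this sum in WT, and its part in the Dnmt3b values was not tested.

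The ratio of Dnmt3a to Dnmt3b counts was lower in both KO than in both WT libraries in adults and higher in both KO than in both WT libraries at e13.5. The KO minus WT difference of the mean log2 ratio in adults less that at e13.5 was -2.32, and this difference was not tested. It is not separate from the Dnmt3b result above. The interaction was -0.015 ± 0.60 for Dnmt3a and 2.40 ± 0.92 for Dnmt3b (log2 ± SE), and the adult Dnmt3b values rest on 9 to 23 counts.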

How the results depend on the processing

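Each group has 2 libraries, so a library left alone in its group is assumed to vary like the others, and adult Dnmt3b rests on 9 to 23 counts. No cause of a change below was tested. Among the 10 genes, the number called in adults against e13.5 was 2 to 4 in KO and 3 to 6 in WT when 1 library was left out, and 0 between KO and WT at both ages and for the interaction under every alternative run. Over all genes, adults against e13.5 then called 3710 to 7798 in KO and 2990 to 6965 in WT, KO against WT 0 to 19 in adults and 6 to 35 at e13.5, and the interaction 0 to 5. KO against WT in adults called 8 genes as reported, 64 with no filter, 54 by DESeq2, 13 with median-of-ratios scaling, 2 with the 4 libraries alone and 22 with a block at e13.5 alone. At e13.5 it called 12 as reported, 87 with no filter, 30 by DESeq2 and 5 with the 4 libraries alone. The interaction called 30 genes with no filter and 7 by DESeq2, against 0. Dnmt3b did not pass the filter of 5 CPM and has no value there. With all 8 libraries kept, the median over all genes moved by more than 0.1 for adults against e13.5 in KO (-0.15 as reported, -0.26 with median-of-ratios scaling and with no filter, -0.25 by DESeq2, -0.35 with upper quartile scaling and 0.02 with the block at e13.5 alone), and in WT (-0.26 as reported, -0.39 with upper quartile scaling, -0.56 with no filter and -0.10 with that block). It also moved for KO against WT at e13.5 (-0.07 as reported, 0.05 with median-of-ratios scaling and by DESeq2) and for the interaction (0.12 as reported, -0.02 with median-of-ratios scaling and -0.01 by DESeq2). Without both e13.5 libraries numbered 2 it was 0.05 in KO and -0.08 in WT for adults against e13.5.

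The labels tie same-numbered libraries by nothing but the number. At e13.5 they were alike across genotypes (r of log2 CPM 0.960 for number 1 and 0.954 for number 2, against 0.918 within KO and 0.913 within WT), which is a hint from the data and not from the design. The correlation of their deviations was 0.31 between KO and WT adults, 0.55 between KO and WT at e13.5, 0.13 between ages in KO and -0.03 between ages in WT. With the replicate block, 4 of the 10 genes were called in KO and 6 in WT, as without it, where 48.6% and 45.8% of all genes were called (8081 and 7614). The block at e13.5 alone gave 6 genes in KO and 7 in WT, where 60.1% and 58.1% of all genes were called, with Eed at -1.39 in KO and -1.18 in WT, Jarid2 at 1.77 in KO and 1.52 in WT, and Tet1 in WT at -1.55 (adjusted p = 0.0632, edgeR). The log2 Ezh1 to Ezh2 ratio of adults over e13.5 stays 5.31 when labels are permuted within genotype (exact permutation p = 0.0556) or also within the replicate block (exact permutation p = 0.125), and that of Dnmt3a to Dnmt3b stays 1.59 with the same values of p, the smallest these tests allow. With 1 added to both counts the Dnmt3a to Dnmt3b value was 1.504, and 1.25 to 1.90 when 1 library was left out. For the Ezh1 to Ezh2 ratio of KO over WT adults, leaving out 1 library gave -0.47 to 0.22.

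Directions that turned belong to differences that were not called as reported. For KO against WT at e13.5, Ezh2 stood at 0.0784 with median-of-ratios scaling, 0.0465 with upper quartile scaling, 0.0139 with no filter and 0.0785 by DESeq2, and Dnmt3a at 0.0797, 0.0279, 0.00210 and 0.0796. For KO against WT in adults, upper quartile scaling gave 0.0119 for Ezh2 and 0.00564 for Eed, and the replicate block gave 0.0214 for Eed. For the interaction, Ezh2 stood at -0.0887 with median-of-ratios scaling, -0.0346 with upper quartile scaling, -0.0276 with no filter, -0.0892 by DESeq2 and -0.0578 with the replicate block, and Suz12 at -0.0866, -0.0231, -0.0141, -0.0866 and -0.0836. For adults against e13.5 in WT, Jarid2 stood at 0.29 with the replicate block and at 1.81 without both e13.5 libraries numbered 2, where Dnmt1 stood at 0.16. In KO, Jarid2 stood at -0.16 without both numbered 1.

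When 1 library was left out, KO against WT in adults ranged from -0.38 to 0.30 for Ezh2, -0.14 to 0.0965 for Eed, -0.78 to 0.35 for Suz12, -0.54 to 0.27 for Dnmt3a and -0.29 to 0.81 for Tet1. At e13.5 it ranged from -0.85 to 0.39 for Ezh1, -0.49 to 0.46 for Ezh2, -0.41 to 0.94 for Eed, -0.41 to 0.31 for Suz12, -1.94 to 1.18 for Jarid2, -1.45 to 0.91 for Dnmt1, -0.14 to 0.22 for Dnmt3a, -1.64 to -0.30 for Dnmt3b, -0.52 to 0.17 for Uhrf1 and -1.33 to 0.63 for Tet1. Adults against e13.5 ranged from -0.18 to 1.49 for Jarid2 in KO, and in WT from -0.88 to 1.87 for Jarid2 and -2.15 to 0.22 for Dnmt1. The interaction ranged from -0.55 to 0.70 for Ezh1, -0.47 to 0.47 for Ezh2, -0.96 to 0.39 for Eed, -0.63 to 0.50 for Suz12, -1.45 to 1.67 for Jarid2, -1.11 to 1.25 for Dnmt1, -0.48 to 0.33 for Dnmt3a, -1.22 to 0.12 for Uhrf1 and -0.27 to 1.70 for Tet1.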
